A study of Mus musculus with 4 samples.

Results

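The ephrin, semaphorin, plexin, Slit and netrin guidance families were described in embryonic mouse lung at E18.5 on Affymetrix arrays labelled *Hmga2* KO and WT. Members were all genes whose symbol belongs to the Eph receptors, ephrins, semaphorins of classes 3 to 7, plexins, neuropilins, Slits, Robos or netrins 1 to 5. The rule reads symbols and no measured value, but the families were picked with earlier results of these data known. Of the 19938 genes measured, 63 were members: 9 EphA and 4 EphB receptors, 5 ephrin-A and 3 ephrin-B ligands, 20 semaphorins, 9 plexins, 2 neuropilins, 3 Slits, 4 Robos and 4 netrins. A gene was read from its probe set with the highest mean over the 4 arrays, and 59 members had a single probe set.

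The 2 arrays labelled KO came from lungs of C57BL/6 embryos with the genotype *Hmga2*-/- and the 2 arrays labelled WT from C57BL/6 embryos without the mutation, all at embryonic day 18.5. *Hmga2* encodes a chromatin protein of the high mobility group family. The KO is constitutive and acts in the whole embryo. RNA of the whole lung was hybridised, with 1 array per sample, and the labels call the samples of a group biological replicates, although both WT titles share the same group name. In such bulk RNA, fewer cells of a type and less RNA per cell cannot be told apart. Values are log2 signals of a probe set after RMA, a background correction with a normalization between arrays, so they compare arrays for 1 gene and not genes with each other.

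The *Hmga2* probe set did not separate the groups, with 9.65 and 9.39 in the arrays labelled KO and 9.35 and 9.59 in those labelled WT. Its difference was 0.05 on the log2 scale (SE 0.16, adjusted p = 0.892, limma). Where its probes lie relative to the deletion could not be told from the labels or the methods, so KO and WT below stand for the labels. The KO arrays correlated with each other at 0.998 over genes and the WT arrays at 0.987, and WT replicate 1 stood farthest from the KO arrays, at 0.975 and 0.977, against 0.992 and 0.991 for WT replicate 2. The endothelial marker list had a mean log2 value of 11.15 and 11.08 in KO arrays and 11.36 and 11.46 in WT arrays. The number of arrays limits the precision of every value.

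Guidance molecules are ligands and receptors through which cells attract or repel each other, first described for growing axons. Eph receptors are tyrosine kinases that bind membrane-bound ephrins on neighbouring cells, and signals run in both directions. Semaphorins signal through plexins, with neuropilins as co-receptors for the secreted class 3 members, Slits signal through Robos, and netrins bind receptors of the DCC and UNC5 types. In the lung these families are known for roles in blood and lymphatic vessels, airway branching and innervation.

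No member passed the test over all genes. At an adjusted p under 0.05, limma called 0 of 63 members, against 0.782% of all genes (0.0802% higher and 0.702% lower in KO arrays), and 15 members (23.8%) had an unadjusted p under 0.05, against 14.5% of all genes. Of these 15, 5 had the higher mean in KO arrays (7.94% of members, against 5.88% of all genes) and 10 the lower mean (15.9%, against 8.58%). The KO and WT arrays did not overlap in 32 members, or 50.8%, close to the 49.4% of all genes, with 15 above WT (17.6% of all genes) and 17 below (31.8%). A difference past 1.2-fold without overlap was found in 17 members (27.0%, against 25.9% of all genes), 6 higher (9.52%, against 10.8%) and 11 lower in KO arrays (17.5%, against 15.1%). Higher means in KO arrays were found in 31 members, against 41.2% of all genes, and lower means in 32. The median difference was −0.02 on the log2 scale, against −0.05 over all genes. Members were brighter than most genes, with 8 (12.7%) among the dimmest 40% of genes. Without the dimmest 40% the medians were alike, 0.033 for members and 0.034 for all genes. The number of calls turned on single arrays, over all genes as well as among members. A fit with 1 array fewer assumes that the lone array varies as the other group does, so its calls are not counted here. Leaving out WT replicate 1 put the median difference of the members at −0.044 (all genes −0.058). Leaving out WT replicate 2 put this median at 0.046 (all genes −0.034). After cyclic loess, another scaling between arrays, the sign turned for *Efnb2*, *Epha6*, *Epha8*, *Plxnb3*, *Sema3e*, *Sema4c* and *Slit1*, whose differences lay between −0.08 and 0.05.

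The spread between replicates was of the size of these differences. The median absolute difference between the groups was 0.18 on the log2 scale for members and 0.17 for all genes. The KO replicates of a member differed by a median of 0.09 and the WT replicates by 0.17. In 33 of 63 members (52.4%) the WT arrays lay farther apart from each other than the group means did, and in 57.2% of all genes.

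**Figure D1:**
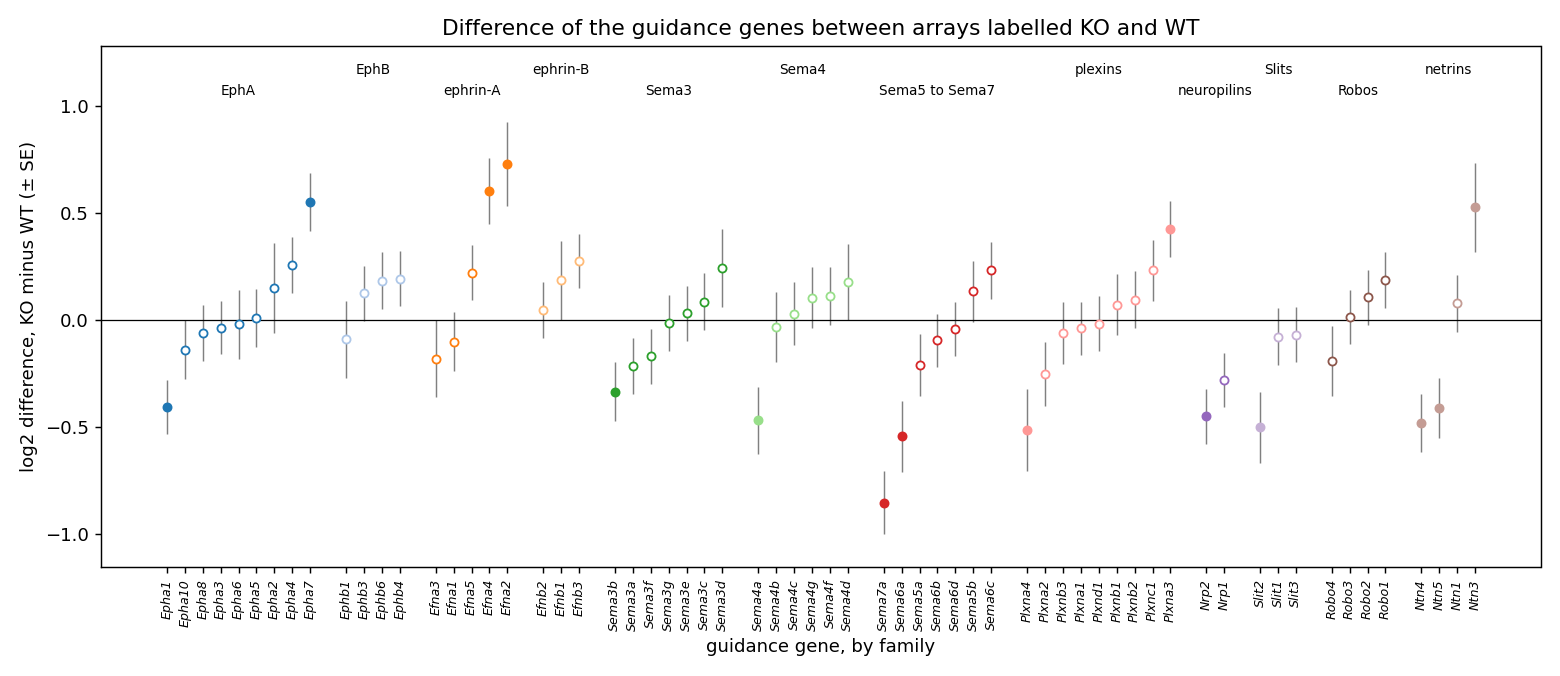
Log2 difference, KO minus WT, of each of the 63 guidance genes (vertical axis, points with ± SE from limma), ordered by family and difference along the horizontal axis. Filled points are the 15 genes with an unadjusted p under 0.05, 5 of them above and 10 below 0, and *Sema7a* is the lowest point at −0.85 and *Efna2* the highest at 0.73.

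*Sema7a*, a membrane-anchored semaphorin that binds plexin C1 and beta-1 integrins, had the smallest p of all members. Its log2 values were 9.83 and 9.67 in KO arrays, against 10.48 and 10.72 in WT arrays. Both KO arrays lay below both WT arrays, by a distance larger than the gap within either group. The difference was −0.85 (SE 0.15, 95% interval −1.21 to −0.50), a signal 1.81-fold lower in KO arrays, with an unadjusted p of 0.000913 and an adjusted p of 0.0711 (limma). Among the alternatives that keep all arrays and fit no replicate block the adjusted p lay between 0.024 and 0.0735, and it crossed 0.05 after centring the arrays, after cyclic loess and without the dimmest 40% of genes. With any 1 array left out, the difference of *Sema7a* stayed between −0.97 and −0.73. Among its receptors, *Plxnc1* had 10.21 and 10.18 in KO arrays, against 9.83 and 10.09 in WT arrays, a difference of 0.23 (adjusted p = 0.485). The integrin chain *Itga1* had 10.72 and 10.63 in KO arrays, against 11.51 and 11.12 in WT arrays, a difference of −0.64 (SE 0.17, adjusted p = 0.162). Against WT replicate 1 alone *Itga1* differed by −0.83, and against WT replicate 2 alone by −0.45. *Itgb1*, its beta chain, overlapped between the groups, with a difference of −0.04.

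Among all members, the smallest p values below WT belonged to *Sema7a* and *Ntn4*, a netrin of basement membranes, and those above WT to *Epha7*, a receptor of ephrin-A ligands, and *Efna4*, an ephrin-A ligand. Their promoters were picked by p and not by the size of the difference. Each is shown as the 250 bases before the start in RefSeq (GRCm38.p6), 5′ to 3′ on the strand of the gene. Capitals mark matches to 3 short motifs, searched on both strands, which do not overlap here. The TCF/LEF motif was searched as the letters CTTTGA. The site of GATA factors was searched as AGATAA. The box bound by NF-Y, the CCAAT box, was searched by the letters of its name. *Sema7a* is at chr9:57939862-57940111 on the plus strand, *Ntn4* at chr10:93640799-93641048 on the plus strand, *Epha7* at chr4:28812881-28813130 on the plus strand and *Efna4* at chr3:89338029-89338278 on the minus strand.
Sema7a: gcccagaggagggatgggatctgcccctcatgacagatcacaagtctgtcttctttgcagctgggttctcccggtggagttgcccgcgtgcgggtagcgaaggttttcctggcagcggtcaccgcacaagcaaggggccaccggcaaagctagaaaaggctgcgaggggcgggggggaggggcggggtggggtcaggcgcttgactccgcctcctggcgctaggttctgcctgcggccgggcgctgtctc
Ntn4: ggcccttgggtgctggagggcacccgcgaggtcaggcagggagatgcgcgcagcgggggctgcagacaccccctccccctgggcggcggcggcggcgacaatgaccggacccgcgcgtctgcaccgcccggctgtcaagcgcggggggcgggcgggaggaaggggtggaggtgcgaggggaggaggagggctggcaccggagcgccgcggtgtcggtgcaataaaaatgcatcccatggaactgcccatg
Epha7: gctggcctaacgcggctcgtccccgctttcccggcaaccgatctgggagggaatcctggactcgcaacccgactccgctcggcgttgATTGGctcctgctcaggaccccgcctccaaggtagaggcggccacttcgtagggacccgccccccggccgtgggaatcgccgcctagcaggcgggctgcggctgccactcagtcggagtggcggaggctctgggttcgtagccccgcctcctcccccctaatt
Efna4: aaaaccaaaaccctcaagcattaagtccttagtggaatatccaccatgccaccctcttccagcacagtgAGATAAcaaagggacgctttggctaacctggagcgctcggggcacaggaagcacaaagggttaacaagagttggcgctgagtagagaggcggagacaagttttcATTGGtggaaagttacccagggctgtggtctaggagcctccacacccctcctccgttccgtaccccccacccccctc
No motif was found in the windows of *Sema7a* and *Ntn4*, *Epha7* held 1 CCAAT box, and *Efna4* held 1 GATA motif and 1 CCAAT box. Of the 63 members, 55 had an entry in the promoter table. A TCF/LEF motif stood in 4 of these 55 windows (*Nrp2*, *Epha2*, *Sema3e* and *Robo4*) and in 14.0% of 27025 promoters of the same length, a GATA motif in 2 (*Efna4* and *Epha3*) and in 10.3% of all, and a CCAAT box in 14 and in 34.5% of all. The median GC content was 64.4% for members and 52.0% for all promoters. The matches describe letters and carry no measure of binding.

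**Figure D2:**
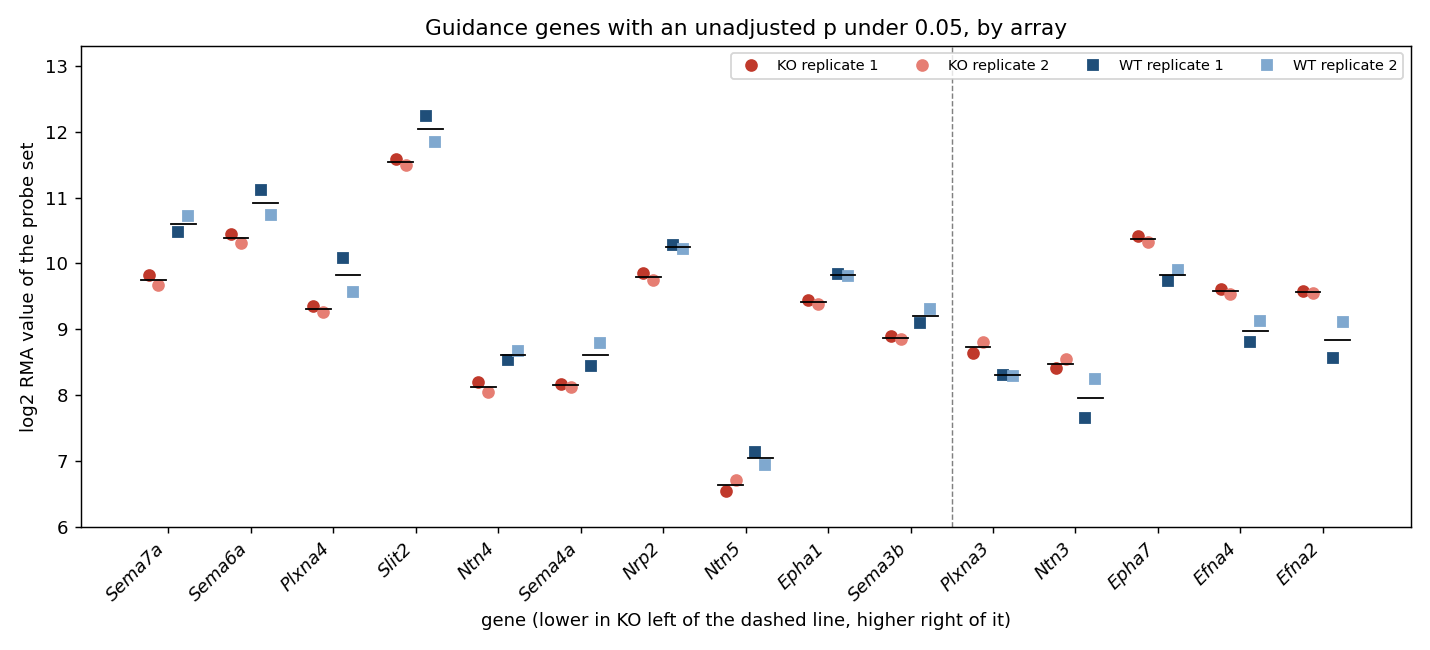
Log2 RMA value (vertical axis) of the 15 guidance genes with an unadjusted p under 0.05 on each array, with KO arrays as circles left of the WT arrays as squares and bars at the group means. The groups do not overlap in any of the 15. The WT arrays stand farther apart than the KO arrays in most of the 15, with the widest WT gaps in *Efna2*, *Ntn3* and *Plxna4*.

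Ephrins, the ligands of Eph receptors, had mostly higher means in KO arrays, in 6 of 8 genes (*Efnb2*, 1 of the 6, turned after cyclic loess) with a median difference of 0.21 on the log2 scale. *Efna4* had 9.61 and 9.54 in KO arrays, against 8.81 and 9.13 in WT arrays. Both KO arrays stood above both WT arrays, with a difference of 0.60 (SE 0.15, adjusted p = 0.157). *Efna2*, another ephrin-A ligand, had 9.59 and 9.55 in KO arrays, against 8.56 and 9.11 in WT arrays, a difference of 0.73 (SE 0.20, adjusted p = 0.173). The KO arrays were nearly equal and the WT arrays 0.55 apart, so the size of the difference turned on the WT array, 1.0 against WT replicate 1 alone and 0.46 against WT replicate 2 alone. *Efna5* had 8.59 and 8.47 in KO arrays, against 8.32 and 8.29 in WT arrays (difference 0.22, adjusted p = 0.460). *Efna1*, an ephrin of vessels and epithelia, had 10.69 and 10.79 in KO arrays and 10.75 and 10.93 in WT arrays. *Efna1* and *Efna3* overlapped between the groups, with differences of −0.10 and −0.18. *Efna1*, *Efna3* and *Efna4* lie next to each other in the genome, with 0 protein-coding genes between neighbours in RefSeq (GRCm38.p6), and of these genes only *Efna4* was separated between the groups.

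All ephrin-B ligands, which carry a cytoplasmic tail, had a higher mean in KO arrays, except that *Efnb2* turned to −0.01 after cyclic loess, and none passed the test. *Efnb3* had 8.27 and 8.35 in KO arrays, against 8.03 and 8.04 in WT arrays, without overlap (difference 0.28, SE 0.13, adjusted p = 0.383). *Efnb1* had 10.32 and 10.31 in KO arrays and 9.88 and 10.37 in WT arrays, so that WT replicate 2 was the highest array (difference 0.19, adjusted p = 0.643). *Efnb2*, the ephrin of arterial endothelium, had 10.44 and 10.36 in KO arrays and 10.42 and 10.30 in WT arrays, and its interval ran from −0.27 to 0.36.

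Eph receptors were split, with 7 higher and 6 lower means in KO arrays and a median difference of 0.01. *Epha7* had 10.42 and 10.32 in KO arrays, against 9.73 and 9.91 in WT arrays. The KO arrays stood above the WT arrays by more than the gap within either group (difference 0.55, SE 0.14, adjusted p = 0.149). *Epha1*, an EphA receptor of epithelia, ran the other way, with 9.45 and 9.38 in KO arrays, against 9.84 and 9.81 in WT arrays (difference −0.41, SE 0.13, adjusted p = 0.219). *Epha4*, which binds ephrins of both classes, had 9.78 and 9.65 in KO arrays, against 9.42 and 9.50 in WT arrays (difference 0.26, adjusted p = 0.418). The other EphA receptors, *Epha2*, *Epha3*, *Epha5*, *Epha6*, *Epha8* and the kinase-inactive *Epha10*, had differences between −0.14 and 0.15. Of the EphA genes, *Epha5*, *Epha6*, *Epha8* and *Epha10* were among the dimmest 40% of genes on these arrays.

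In the EphB class the 4 measured receptors of ephrin-B ligands had small differences. *Ephb2*, which fits the rule by its symbol, had no probe set under that symbol, so nothing is known of it here. *Ephb4*, the ephrin-B2 receptor of veins, had 10.93 and 10.99 in KO arrays, against 10.72 and 10.82 in WT arrays (difference 0.19, adjusted p = 0.506). *Ephb6*, which lacks kinase activity, had 8.40 and 8.22 in KO arrays, against 8.12 and 8.13 in WT arrays (difference 0.19, adjusted p = 0.535). *Ephb3* had 10.02 and 9.93 in KO arrays, against 9.80 and 9.90 in WT arrays (difference 0.13, adjusted p = 0.655). These 3 receptors were separated without overlap, each by less than 1.2-fold, while *Ephb1* overlapped (difference −0.09).

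Of the 20 semaphorins, 9 had higher and 11 lower means in KO arrays, and the 4 with an unadjusted p under 0.05 were all lower, against 8.58% of all genes lower and 5.88% higher at that p. Besides *Sema7a* these were *Sema6a*, *Sema4a* and *Sema3b*. *Sema6a*, a transmembrane ligand of plexins A2 and A4, had 10.45 and 10.31 in KO arrays, against 11.11 and 10.74 in WT arrays (difference −0.54, SE 0.17, adjusted p = 0.217). Both KO arrays were lower, by 0.73 against WT replicate 1 alone and 0.36 against WT replicate 2 alone. *Sema4a*, a transmembrane semaphorin known in immune cells and vessels, had 8.17 and 8.12 in KO arrays, against 8.45 and 8.79 in WT arrays (difference −0.47, SE 0.16, adjusted p = 0.254). *Sema3b*, a secreted neuropilin ligand, had 8.89 and 8.86 in KO arrays, against 9.10 and 9.32 in WT arrays (difference −0.33, SE 0.14, adjusted p = 0.343). For both genes WT replicate 2 stood highest.

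The other secreted class 3 semaphorins differed by less than 1.2-fold. *Sema3a*, the neuropilin-1 ligand, had 11.17 and 11.13 in KO arrays, against 11.45 and 11.28 in WT arrays (difference −0.21, adjusted p = 0.485). *Sema3d*, its neighbour in the genome, had 8.83 and 8.60 in KO arrays and 8.26 and 8.68 in WT arrays, with overlap (difference 0.24, adjusted p = 0.550). *Sema3f*, a neuropilin-2 ligand, had a difference of −0.17, and *Sema3c*, *Sema3e* and *Sema3g* lay between −0.02 and 0.09. In class 4, *Sema4d*, the plexin B1 ligand, had 8.64 and 8.41 in KO arrays and 8.15 and 8.55 in WT arrays (difference 0.18, adjusted p = 0.649). *Sema4c*, a plexin B2 ligand, had 9.95 and 9.88 in KO arrays and 9.75 and 10.02 in WT arrays (difference 0.03, 95% interval −0.32 to 0.38). *Sema4f* had 9.0 and 8.96 in KO arrays and 8.77 and 8.96 in WT arrays, which overlapped (difference 0.11, adjusted p = 0.705). *Sema4b* and *Sema4g* overlapped as well, with differences of −0.03 and 0.10.

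In classes 5 and 6, *Sema5a*, with thrombospondin repeats, had 10.69 and 10.60 in KO arrays, against 10.98 and 10.72 in WT arrays (difference −0.21, adjusted p = 0.525). *Sema6c* had 7.73 and 7.81 in KO arrays, against 7.45 and 7.63 in WT arrays (difference 0.23, adjusted p = 0.458). Both genes were separated without overlap, in opposite directions. *Sema5b*, *Sema6b* and *Sema6d* had differences of 0.14, −0.09 and −0.04.

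Plexins, the receptors of semaphorins, had 4 higher and 5 lower means in KO arrays. *Plxna4*, a Sema6a and class 3 receptor, had 9.35 and 9.27 in KO arrays, against 10.08 and 9.56 in WT arrays (difference −0.51, SE 0.19, adjusted p = 0.302). *Plxna3*, a receptor for class 3 semaphorins, had 8.65 and 8.81 in KO arrays, against 8.31 and 8.30 in WT arrays (difference 0.42, SE 0.13, adjusted p = 0.220). Neither gene overlapped, and they lay on opposite sides, *Plxna3* with nearly equal WT arrays and *Plxna4* with WT arrays 0.51 apart. *Plxna2* had 10.33 and 10.22 in KO arrays, against 10.67 and 10.38 in WT arrays (difference −0.25, adjusted p = 0.470). *Plxnb2*, a class 4 receptor, had 12.04 and 12.10 in KO arrays and 11.90 and 12.06 in WT arrays (difference 0.10, 95% interval −0.23 to 0.41). *Plxna1*, *Plxnb1*, *Plxnb3* and *Plxnd1*, the endothelial Sema3e receptor, overlapped between the groups with differences between −0.06 and 0.07. In 8 of the 9 plexins the WT arrays lay farther apart than the group means.

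Both neuropilins, co-receptors for class 3 semaphorins and vascular endothelial growth factors, had lower values in both KO arrays. *Nrp2*, which is known in lymphatic vessels, had 9.86 and 9.74 in KO arrays, against 10.28 and 10.22 in WT arrays (difference −0.45, SE 0.13, adjusted p = 0.196). *Nrp1* had 11.62 and 11.55 in KO arrays, against 11.90 and 11.84 in WT arrays (difference −0.28, SE 0.13, adjusted p = 0.379). For both genes the distance between the groups exceeded the gap within each group. Endothelial markers had lower means in KO arrays as well, for 10 of 11 genes (median −0.27) and for 4 of 5 lymphatic markers (median −0.28). Of all genes, 41.2% had the higher mean, and limma called 0 genes of either list. Among other members known in vessels, *Ephb4* (0.19) and *Efnb2* (0.05) had higher means. *Efna1* (−0.10), *Plxnd1* (−0.02), *Robo4* (−0.19) and *Sema4a* (−0.47) had lower ones. The part of endothelial and lymphatic cells in the neuropilin values was not tested.

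The Slits, secreted ligands of Robo receptors, had lower means in KO arrays for all 3 genes, except that *Slit1* turned to 0.01 after cyclic loess. *Slit2* had 11.58 and 11.50 in KO arrays, against 12.24 and 11.84 in WT arrays (difference −0.50, SE 0.17, adjusted p = 0.252). The difference was −0.70 against WT replicate 1 alone and −0.30 against WT replicate 2 alone. *Slit3* had 10.57 and 10.46 in KO arrays and 10.62 and 10.54 in WT arrays (difference −0.07), and *Slit1*, among the dimmest 40% of genes, had 6.98 and 6.82 in KO arrays and 6.94 and 7.02 in WT arrays (difference −0.08). Both of these overlapped between the groups. Of the receptors, *Robo1* had 11.39 and 11.25 in KO arrays, against 11.11 and 11.15 in WT arrays (difference 0.19, adjusted p = 0.520). *Robo2*, its neighbour in the genome, had 10.35 and 10.23 in KO arrays, against 10.21 and 10.15 in WT arrays (difference 0.11, adjusted p = 0.706). Both stood above WT without overlap by less than 1.2-fold. *Robo4*, a receptor of endothelium, had 10.17 and 10.19 in KO arrays and 10.18 and 10.56 in WT arrays (difference −0.19, adjusted p = 0.599), and *Robo3* a difference of 0.02.

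Netrins were spread in both directions. *Ntn4* had 8.20 and 8.05 in KO arrays, against 8.54 and 8.67 in WT arrays (difference −0.48, SE 0.13, adjusted p = 0.186). *Ntn5* had 6.55 and 6.71 in KO arrays, against 7.13 and 6.95 in WT arrays (difference −0.41, SE 0.14, adjusted p = 0.270), at the dim end of the arrays. Both were below WT on both KO arrays. *Ntn3* had 8.41 and 8.54 in KO arrays, against 7.66 and 8.24 in WT arrays (difference 0.53, SE 0.21, adjusted p = 0.326), with 0.82 against WT replicate 1 alone and 0.24 against WT replicate 2 alone. *Ntn1*, the founding netrin and ligand of DCC and UNC5 receptors, overlapped, with a difference of 0.08 and an interval from −0.24 to 0.40.

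The WT array chosen set the size of many of these differences. Of the 15 members with an unadjusted p under 0.05, 7 lay over 1.5 times farther from WT replicate 1 than from WT replicate 2 (*Sema6a*, *Plxna4*, *Slit2*, *Ntn5*, *Ntn3*, *Efna4* and *Efna2*), 2 lay over 1.5 times farther from WT replicate 2 (*Sema4a* and *Sema3b*) and 6 within 1.5 times. These 6 were *Sema7a*, *Ntn4*, *Nrp2*, *Epha1*, *Plxna3* and *Epha7*. The groups did not overlap in any of the 15, so an equal sign against either WT array was fixed in advance.

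**Figure D3:**
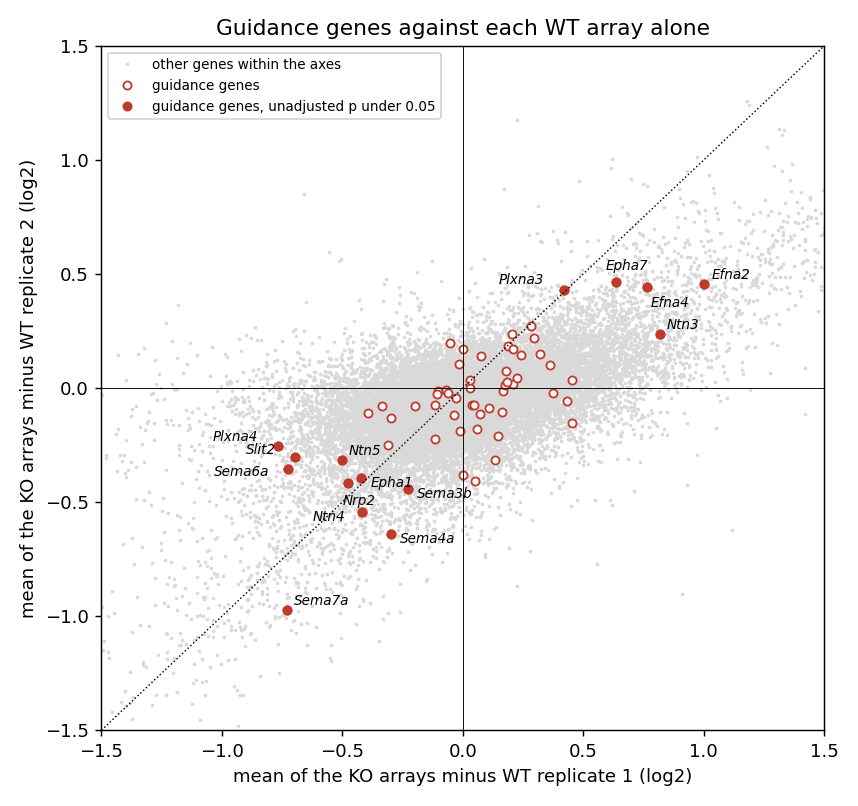
Mean of the KO arrays minus WT replicate 1 alone (horizontal axis) against the same minus WT replicate 2 alone (vertical axis), both on the log2 scale, for all genes (grey) and the 63 guidance genes (red), with those of an unadjusted p under 0.05 filled and named. *Sema7a* lies at the lower left near the dotted line of equal differences, and *Efna2*, *Ntn3* and *Plxna4* lie nearer to the horizontal axis, since their differences are larger against WT replicate 1.

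Other genes of the same pathways gave 0 calls at an adjusted p under 0.05 (limma) in each of the 4 lists, although *Flrt2* and *Rnd1* passed under some alternatives given beside them. Of 9 Slit-Robo and FLRT partners, 5 had higher and 4 lower means in KO arrays (median 0.06), 3 and 1 of them with a p under 0.05 before adjustment, against 5.88% and 8.58% of all genes. *Gpc1*, a glypican that binds Slits, had 9.67 and 9.69 in KO arrays, against 8.91 and 9.05 in WT arrays (difference 0.70, SE 0.13, adjusted p = 0.0824). *Flrt2*, a membrane ligand of UNC5 receptors, had 9.37 and 9.18 in KO arrays, against 7.51 and 8.38 in WT arrays (difference 1.33, SE 0.28, adjusted p = 0.104, or 0.0443 without the dimmest 40% of genes). The groups were separated in both, and in *Flrt2* the WT arrays were 0.87 apart. *Gpc1* differed by 0.765 against WT replicate 1 alone and by 0.63 against WT replicate 2 alone, and *Flrt2* by 1.765 and 0.898. *Srgap3*, a GTPase-activating protein of Robo signaling, had a difference of 0.35 (adjusted p = 0.288).

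Among 21 semaphorin co-receptors and signaling genes, 9 had higher and 12 lower means in KO arrays (median −0.04), 3 in each direction with a p under 0.05 before adjustment, against 5.88% of all genes higher and 8.58% lower. *Rnd1*, a small GTPase that binds plexins, had 6.47 and 6.47 in KO arrays, against 7.19 and 7.21 in WT arrays (difference −0.73, SE 0.12, adjusted p = 0.0686, or 0.0376 with a trended robust variance). Replicates of *Rnd1* were nearly equal in both groups. *Met*, the hepatocyte growth factor receptor that associates with plexins of class B, had 9.71 and 9.57 in KO arrays, against 10.47 and 10.19 in WT arrays (difference −0.69, adjusted p = 0.112). *Dpysl5*, of the collapsin response mediators, had 8.16 and 7.96 in KO arrays, against 7.30 and 7.59 in WT arrays (difference 0.62, adjusted p = 0.161). *Rnd1* differed by −0.72 against WT replicate 1 alone and by −0.74 against WT replicate 2 alone. For *Met* these differences were −0.83 and −0.55, and for *Dpysl5* 0.76 and 0.47.

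Among 11 netrin receptors and RGM ligands, 5 had higher and 6 lower means in KO arrays (median −0.01). In this list 0 genes had an unadjusted p under 0.05, and the smallest p values were those of *Rgma*, a ligand of neogenin (difference 0.49, adjusted p = 0.385), *Unc5c* (0.27, adjusted p = 0.410) and *Unc5d* (0.21, adjusted p = 0.494). *Neo1*, which encodes neogenin, had a difference of −0.19, and *Unc5b*, the UNC5 receptor of vessels, of −0.04. Of 18 genes of Eph receptor signaling, 8 had higher and 10 lower means (median −0.02). *Vav3*, an exchange factor (difference −0.37, adjusted p = 0.321), and *Ptpro*, a phosphatase of Eph receptors (0.31, adjusted p = 0.333), were the 2 with an unadjusted p under 0.05, and *Grip1*, which binds ephrin-B tails, had a difference of 0.34 (adjusted p = 0.381). Against WT replicate 1 alone and WT replicate 2 alone, *Rgma* differed by 0.83 and 0.155. In the same order the differences were −0.45 and −0.28 for *Vav3*, 0.41 and 0.27 for *Grip1*, and 0.39 and 0.31 for *Srgap3*.

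Mean levels of several cell type marker lists were separated between the groups. At an adjusted p under 0.05, limma called 2 fibroblast and 1 cardiac gene higher, against 0.0802% of all genes. It called 3 distal, 1 airway, 1 macrophage and 1 mesothelial gene lower, against 0.702%, and 0 cell division and 0 endothelial genes. Fibroblast and mesenchyme genes had higher means in 8 of 10, at 11.22 and 11.18 in KO arrays and 10.80 and 10.89 in WT arrays. Airway epithelium was split, 4 higher and 3 lower, at 9.37 and 9.27 in KO arrays and 9.63 and 9.78 in WT arrays. Cell division genes had higher means in KO arrays in 9 of 9, with mean list levels of 11.43 and 11.34 in KO arrays and 10.10 and 10.78 in WT arrays, and cardiac muscle genes in 6 of 6, with 10.95 and 10.73 in KO arrays and 10.07 and 9.85 in WT arrays. Macrophage and leukocyte markers were lower in 8 of 8, at 8.03 and 7.93 in KO arrays and 8.55 and 8.57 in WT arrays, and distal epithelium in 9 of 12, at 11.60 and 11.56 in KO arrays and 12.07 and 12.15 in WT arrays. The 3 distal genes with a higher mean were *Sox9* (difference 0.85), *Etv5* (0.41) and *Id2* (0.15, with overlap). Of all genes, 41.2% had the higher mean in KO arrays. Neuron and Schwann cell markers had mean levels that overlapped between the groups, with 1 of 9 genes separated, at 7.30 and 7.20 in KO arrays and 7.07 and 7.21 in WT arrays. The part of these cell types in the guidance genes was not tested.

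**Figure D4:**
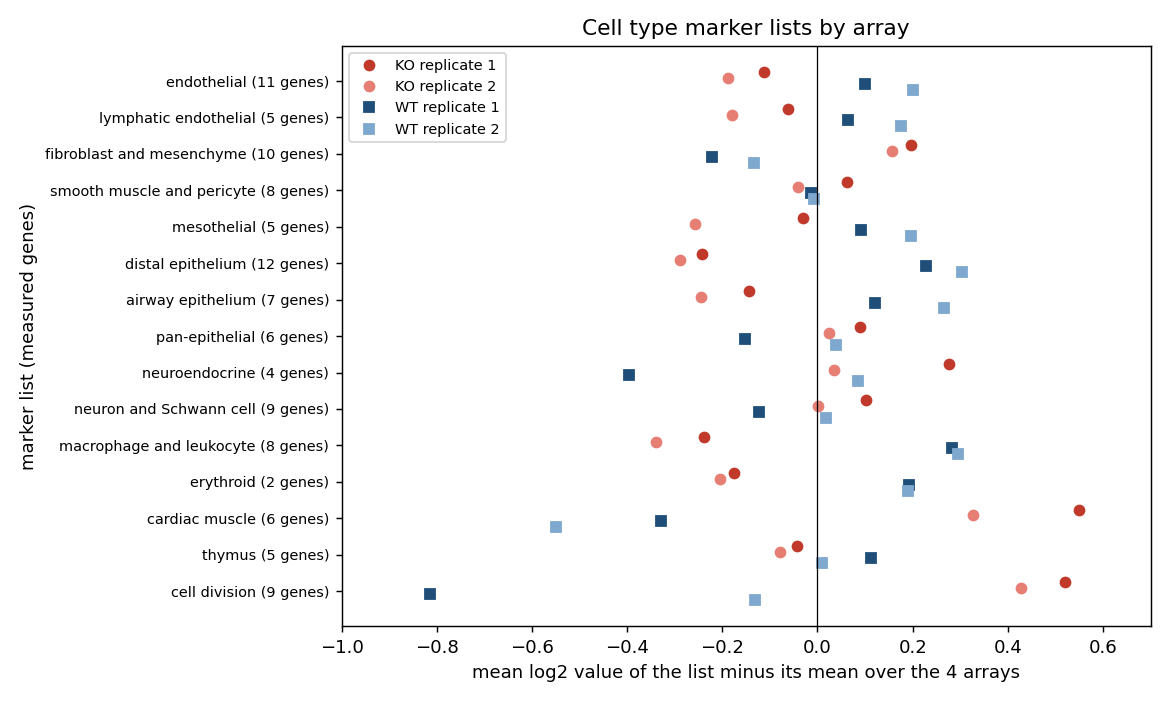
Mean log2 value of each cell type marker list on each array minus its mean over the 4 arrays (horizontal axis), with KO arrays as circles and WT arrays as squares, for 15 lists (vertical axis). The endothelial, distal epithelium, airway epithelium and macrophage lists lie lower on both KO arrays. The fibroblast, cardiac muscle and cell division lists lie higher, and WT replicate 1 is the lowest array for cell division.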

How the data were processed

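Total RNA of E18.5 lung was hybridised to Affymetrix arrays. The authors deposited log2 values for 30177 probe sets, and the submitters' processing notes name RMA and Affymetrix Expression Console, without versions. No detection calls came with the values, and precision is limited by how many arrays there were. Through the platform's annotation 21789 probe sets had 1 symbol, 1621 had several, and the other 6767 stayed unnamed here. All 63 members matched RefSeq (GRCm38.p6) by Entrez ID.

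Groups were taken from the genotype labels, and differences are KO minus WT. A linear model was fitted to 19938 genes with lmFit of limma 3.58.1 (R 4.3.3) and moderated with eBayes (2 residual and 4.42 prior degrees of freedom, two-sided tests), with Benjamini-Hochberg adjustment over all of them at 0.05. An exact permutation test of 2 arrays against 2 cannot go below 0.333 and was not used. Intervals come from the moderated variance. P values weigh the difference between the groups against the spread between these samples, moderated over all genes. The code was tested on simulated data.

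Members and gene lists were chosen with earlier results of these data known. Per-array values are given for up to 3 members of each family with the smallest p and for the member with the highest mean, for ligands or receptors of these beside them, and for up to 3 genes of each pathway list with the smallest p. Other members are named with their difference.

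Alternatives used cyclic loess, arrays centred on their medians, a block for the replicate number, a filter on the dimmest 40% of genes, a gene's mean over its probe sets, a trended robust eBayes, 1 array fewer, a threshold of 0.10 and a fold limit of 1.5. A crossed replicate block was added after seeing the data. Promoter windows of 250 bases came from RefSeq. Plots were made in matplotlib 3.10.9 (Python 3.11.15).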

Additional observations from a re-analysis of the deposited data

How the results depend on the processing

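Of the single members' values under alternatives that keep all arrays, 358 of 370 kept direction and side of the threshold. *Sema7a* crossed it in 4 of them, with adjusted p of 0.0344 with the replicate block, 0.0391 after centring, 0.024 after cyclic loess and 0.0417 without the dimmest 40% of genes, and in the added crossed block with 0.0373. Cyclic loess moved the median of all genes to −0.002, and the differences of *Efnb2* (−0.011), *Epha6* (0.12), *Epha8* (0.049), *Plxnb3* (0.002), *Sema3e* (−0.025), *Sema4c* (−0.028), *Slit1* (0.011) and *Hmga2* (−0.006) then had the opposite sign, as had *Sema4d* with the mean of all its probe sets (−0.059). The causes were not tested.

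The deviations of KO replicate 1 and WT replicate 1 from their group means correlated at −0.238 over genes. With 2 arrays per group this compares only 2 differences between arrays, so it cannot tell whether the numbers pair the arrays. With the replicate block limma called 241 genes higher and 361 lower in KO arrays, against 16 and 140 without it, and 1 member, *Sema7a*, as lower. The crossed pairing called 207 and 305, and again 1 member as lower. *Flrt2* passed with the block (adjusted p = 0.0109) and the crossed pairing (0.0373), and *Rnd1* with the crossed pairing (0.0449). Genes called higher and lower numbered 73 and 221 after centring, 80 and 270 after cyclic loess, 74 and 227 without the dimmest 40% and 107 and 350 at an adjusted p under 0.10, with 1 member lower in each, and 25 higher with trend and robust. Past 1.5-fold without overlap, 2 members were higher and 1 lower. The share of all genes at this limit was not computed, so these counts have no background.

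Leaving out each array in turn, limma called 0 to 3321 genes higher and 0 to 2971 lower, and 0 to 9 members in each direction. Without WT replicate 1 it called 2 members higher and 3 lower, without WT replicate 2 it called 9 higher (*Efna2*, *Efna4*, *Efnb1*, *Epha2*, *Epha7*, *Ntn3*, *Plxna3*, *Sema3d* and *Sema4d*) and 9 lower (*Epha1*, *Nrp2*, *Ntn4*, *Ntn5*, *Plxna2*, *Plxna4*, *Sema6a*, *Sema7a* and *Slit2*), and without either KO array 0, with a lone array assumed to vary like the other group. Counts past 1.2-fold ran from 5 to 13 higher, with 13 without WT replicate 2 and 10 without KO replicate 2, and from 10 to 13 lower. Calls over all genes also rose without WT replicate 1, and the upper ends of their ranges came from the fit without WT replicate 2. The member calls of these fits therefore do not set the guidance genes apart from all genes. The median of the members lay between −0.044 and 0.046, and moved to 0.046 without WT replicate 2. For *Sema7a* the difference lay between −0.97 and −0.73. A change of sign was seen for *Efna3* −0.41 to 0.050, *Efnb1* −0.058 to 0.43, *Efnb2* −0.016 to 0.11, *Epha2* −0.15 to 0.45, *Epha5* −0.088 to 0.11, *Epha6* −0.18 to 0.14, *Epha8* −0.12 to 0.001, *Ephb1* −0.32 to 0.14, *Ntn1* −0.012 to 0.17, *Plxnb1* −0.054 to 0.20, *Plxnb3* −0.18 to 0.061, *Plxnd1* −0.073 to 0.040, *Robo3* −0.013 to 0.046, *Robo4* −0.38 to 0.002, *Sema3e* −0.028 to 0.094, *Sema3g* −0.076 to 0.046, *Sema4b* −0.21 to 0.15, *Sema4c* −0.10 to 0.16, *Sema4d* −0.022 to 0.38, *Sema4g* 0 to 0.21, *Slit1* −0.16 to 0.002, *Hmga2* −0.076 to 0.18 and *Unc5b* −0.086 to 0.003. With 2 arrays per group, and 8 of 63 members among the dimmest 40% of genes (55 passed that filter), differences under about the spread of the WT arrays could not be told from it.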

Other observations

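Of the 63 guidance genes, 4 had more than 1 probe set. For *Sema6b* both carried the same values. The second probe set of *Sema4d*, the plexin B1 ligand, had log2 values of 7.57 and 7.60 in KO arrays and 7.99 and 7.77 in WT arrays, without overlap and lower in KO, while the brighter one overlapped with a higher KO mean. The second probe set of *Ephb1* had 6.01 and 5.77 in KO arrays and 6.36 and 5.76 in WT arrays, with overlap. That of *Epha10* had 7.17 and 7.21 in KO arrays, against 7.25 and 7.32 in WT arrays, without overlap. Neighbouring members did not share a direction throughout: *Sema3d* (0.24) and *Sema3a* (−0.21) lie next to each other with 0 protein-coding genes between them in RefSeq, as do *Robo4* (−0.19) and *Robo3* (0.02), while *Robo1* (0.19) and *Robo2* (0.11) both had the higher mean in KO arrays. These are values of the probe sets, with no test beyond that of the brightest one per gene.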
